A study of Homo sapiens with 8 samples.

Results

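Wide accessible regions that lie away from annotated promoters of protein-coding and long non-coding RNA genes were examined in HEK293T chromatin. Start sites of other gene types, such as small RNA genes, were not considered, so a region may hold one. Peaks of 8 ATAC-seq libraries were merged where they overlapped or touched, which gave 96872 regions. Of these, 359 (0.371%) were at least 2000 bp wide, had no base within 2000 bp of an annotated protein-coding or long non-coding RNA (lncRNA) transcription start site, and had a CpG observed over expected ratio below 0.6. The regions were chosen by merged width, distance to a start site and CpG content, so those values are given as a description and without a test. At the edge of the rule lay a region in an intron of KCNQ5 and one 30.9 kb from LEP, both 2002 bp, and one of 2001 bp 90.5 kb from ADRA2C. Just outside it lay regions of 1998 bp in an intron of WDR64 and 1996 bp near GRAMD2B, and one near LINC02218 that missed the limit by 1 bp.

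ATAC-seq uses the Tn5 transposase to cut and tag DNA that is not wrapped tightly in nucleosomes, so that fragments pile up at open sites. HEK293T, derived from human embryonic kidney, expresses the large T antigen of SV40, and all libraries came from cells with a lentivector and no further treatment. In 4 libraries the lentivector carried histone H2A, and in 4 it carried H2A(E92K), in which a glutamate is replaced by a lysine (called E92K from here on). The labels give neither the promoter of the vector, nor its level beside the cell's own H2A, nor whether replicates came from separate cultures, so p-values measure the spread between these samples, which may be technical. Pileup at a summit comes from a pool of cells, and a site open in more cells cannot be told apart from a site more open in each cell.

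Open sites far from promoters are typical of enhancers, short stretches where several transcription factors bind side by side and from which genes are regulated over long distances. Most are narrow, and clusters of neighbouring enhancers or the transcribed bodies of very active genes give wider open stretches. The glutamate replaced in E92K belongs to the acidic patch, a negatively charged surface of the nucleosome to which many chromatin proteins bind and which also contacts the tail of histone H4 of a neighbouring nucleosome.

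The libraries held 55527 to 62044 peaks each. The fold and p-value of each summit allowed the number of fragments piled up there to be recovered as a whole number, here called the pileup. The background expected over the whole genome, used as relative depth, was 2.71, 2.52, 2.53 and 2.93 fragments in H2A replicates 1 to 4 and 2.41, 2.68, 2.23 and 2.26 in E92K replicates 1 to 4. Promoter peaks were present in all 8 libraries at the nephron progenitor genes PAX2, SIX2, SALL1 and WT1 and at the neuronal filament genes NEFL, NEFM and INA, which HEK lines are known to express. Of the markers of other cell types given here, CD3E, SPI1, ALB, HNF4A, CDH5, PECAM1, UMOD and AQP1 (blood, liver, endothelium and kidney tubule) had no promoter peak in any library, PTPRC (blood) had one in 1 library and MYOD1 (muscle) had one in all 8.

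Sequences are shown first for 5 regions whose pileup was higher in E92K by the test described further on. Each is the 300 bases of hg38 around the region's summit with the largest −log10 p over all libraries, called its highest or top summit. The tested pileup was the largest of each library in the region, and may come from another summit. Capitals mark matches, on either strand, to the motifs of PBX/HOX (TGATTTAT), of GATA factors (AGATAA), of TEAD factors (ACATTCC) and of forkhead or FOX factors (TGTTTAC); AP-1 (TGAGTCA or TGACTCA), homeobox (TAATTA), NFI and CTCF matches would also be in capitals but do not occur in these windows.
VWA8 intron, chr13:41640231-41640530, plus strand: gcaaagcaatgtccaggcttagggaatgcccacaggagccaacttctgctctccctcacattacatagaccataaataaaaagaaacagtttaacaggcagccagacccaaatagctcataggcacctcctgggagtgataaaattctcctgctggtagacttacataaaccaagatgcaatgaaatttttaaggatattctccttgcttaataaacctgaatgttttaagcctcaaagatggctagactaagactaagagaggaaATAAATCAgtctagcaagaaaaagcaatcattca
114.5 kb from FAM171A1, chr10:15486396-15486695, plus strand: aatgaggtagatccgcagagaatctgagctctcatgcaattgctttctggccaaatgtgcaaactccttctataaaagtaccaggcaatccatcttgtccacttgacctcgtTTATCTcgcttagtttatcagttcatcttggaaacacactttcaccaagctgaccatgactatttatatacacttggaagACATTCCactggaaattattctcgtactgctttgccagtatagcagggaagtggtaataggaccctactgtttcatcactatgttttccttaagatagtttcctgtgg
PCDH7 intron, chr4:30884332-30884631, plus strand: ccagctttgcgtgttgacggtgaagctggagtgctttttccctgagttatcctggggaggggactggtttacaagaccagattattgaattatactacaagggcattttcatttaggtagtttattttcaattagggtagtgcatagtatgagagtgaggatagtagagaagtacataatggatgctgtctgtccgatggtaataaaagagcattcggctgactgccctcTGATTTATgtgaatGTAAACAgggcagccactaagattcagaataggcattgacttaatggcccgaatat
901.9 kb from ADGRL2, chr1:80403433-80403732, plus strand: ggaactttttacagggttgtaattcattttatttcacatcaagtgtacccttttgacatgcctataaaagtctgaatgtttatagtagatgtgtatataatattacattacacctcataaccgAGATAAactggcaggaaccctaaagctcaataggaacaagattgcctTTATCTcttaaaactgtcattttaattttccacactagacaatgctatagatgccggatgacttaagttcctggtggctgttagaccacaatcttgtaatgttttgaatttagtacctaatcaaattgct
19.7 kb from TTC30A, chr2:177597752-177598051, plus strand: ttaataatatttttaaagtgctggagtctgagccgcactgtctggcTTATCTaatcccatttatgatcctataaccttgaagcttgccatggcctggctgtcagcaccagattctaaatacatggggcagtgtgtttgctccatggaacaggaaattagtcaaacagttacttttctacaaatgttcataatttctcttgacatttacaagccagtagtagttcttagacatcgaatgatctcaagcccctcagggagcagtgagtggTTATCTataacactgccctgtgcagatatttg
The ADGRL2 and TTC30A windows each hold a pair of GATA matches, the PCDH7 window holds PBX/HOX and FOX matches close together, and the FAM171A1 window holds a GATA and a TEAD match. These are matches of letters and do not show that a factor was bound.

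The 359 regions had a median width of 2231 bp. Only 8 were 3000 bp or wider, 58 were 2500 bp or wider, and together they covered 825.768 kb. A single peak of at least 2000 bp was present in some library in 178 regions and in all 8 libraries in 8; the others reached their width only when libraries were merged. A median of 32.6% of a region's width was covered in all 8 libraries and 9.7% in only 1, and 58 regions had no base covered in all 8. The regions held a median of 2.38 summits per library, against 1.2 in distal CpG-poor regions of 1000 to under 2000 bp. Summits of at least 4 libraries fell together at 2 positions in 158 regions, at 1 in 101, at 3 in 81, at 4 or 5 in 11 and at none in 8. Neighbouring shared summits lay a median of 754 bp apart (quartiles 500 and 1100.25 bp).

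**Figure D1:**
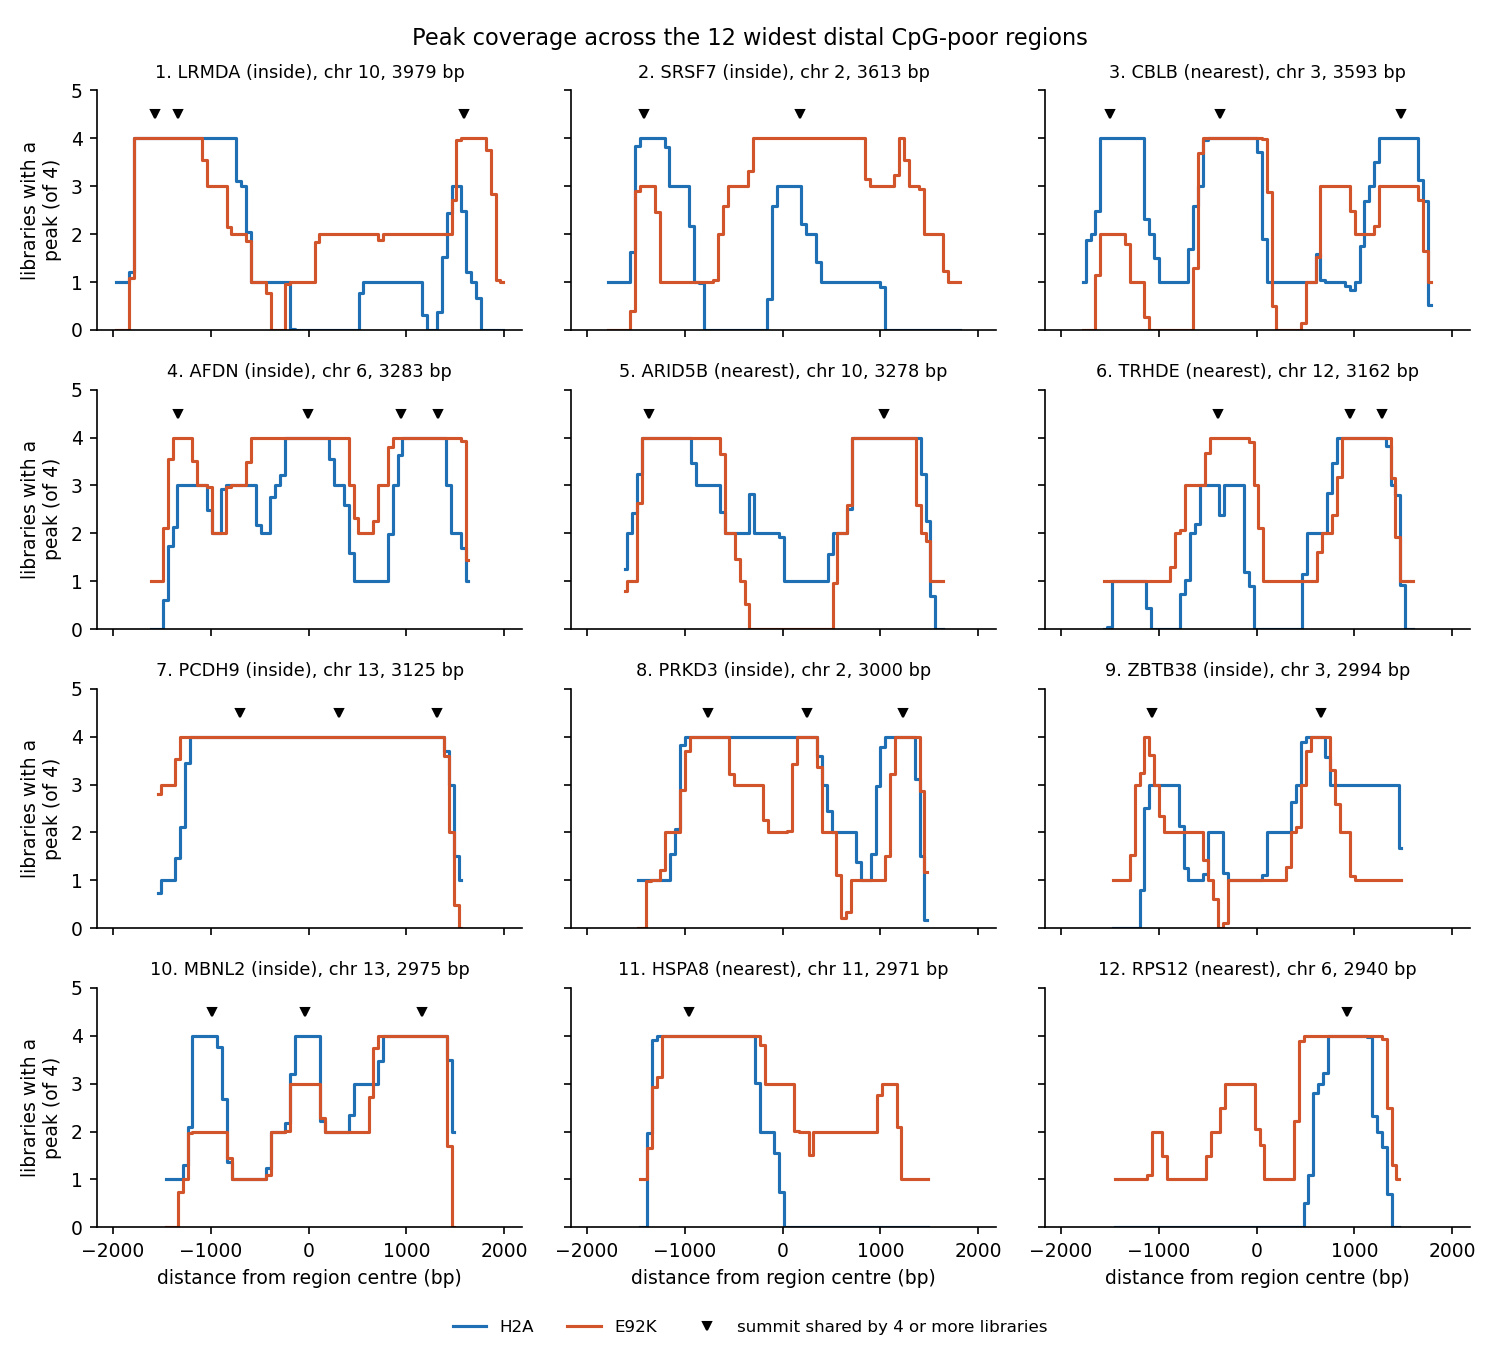
Number of libraries with a peak (of 4 per lentivector, y axis) along the 12 widest regions, by distance from the region's centre in bp (x axis), with triangles at summits shared by 4 or more libraries. The PCDH9 region was covered almost throughout in all 8 libraries, whereas the TRHDE and ARID5B regions fell into separate stretches of peaks, and the SRSF7, HSPA8 and RPS12 regions were covered further along in E92K libraries.

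The widest region, 3979 bp at chr10:76111929-76115907, lay in an intron of LRMDA, a gene of melanocyte differentiation. Its highest pileup was 49, 53, 62 and 56 fragments in H2A and 48, 55, 57 and 58 in E92K. The ranges overlapped (adjusted p = 0.892 by limma). Peaks covered 1604, 1629, 1406 and 2019 bp of it in H2A and 2818, 2739, 1791 and 1801 bp in E92K, where replicates 1 and 2 covered the most.

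The next in rank was a region of 3613 bp at chr2:38740846-38744458 that holds the facing 3′ ends of SRSF7, a splicing factor of the SR family, and GALM, which interconverts the forms of galactose. It is described with the regions at gene ends below. Region 3, 3593 bp at chr3:106380229-106383821, lay 510.7 kb from the ubiquitin ligase gene CBLB. Its pileup was 33, 44, 26 and 36 fragments in H2A and 40, 38, 32 and 36 in E92K, with overlapping ranges. The fourth, 3283 bp in an intron of AFDN, which encodes the junction protein afadin, had pileups of 30 to 45 in H2A and 30 to 40 in E92K.

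The region in PCDH9 (3125 bp, chr13:66413660-66416784) was the most even of the 12 widest. Of its width, 85.0% was covered in all 8 libraries, and peaks spanned 2735 to 2972 bp in H2A and 2838 to 3063 bp in E92K. PCDH9 encodes a protocadherin, a cell adhesion protein. The remaining wide ones lay 63.4 kb from ARID5B, 813.9 kb from TRHDE, in introns of the kinase gene PRKD3, of ZBTB38 (a zinc finger protein that binds methylated DNA) and of the splicing regulator MBNL2, and next to HSPA8 and RPS12.

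Wide regions were found in long genes. Of the 359, 182 (50.7%) lay in an intron of a protein-coding gene and 29 (8.08%) touched an exon of one. Another 50 (13.9%) lay in lncRNA genes only, and 98 (27.3%) lay between genes of these types. For the 9038 distal CpG-poor regions of 1000 to under 2000 bp the shares were 42.9%, 6.21%, 12.6% and 38.3%. The 198 coding genes that held a wide region spanned a median of 211.3 kb, against 27.5 kb for all coding genes. Longer genes offer more sequence, and the part of gene length in this was not tested.

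PCDH9, which spans 927.6 kb on chromosome 13, held 7 of the regions, more than any other gene. Their mean fold over local background, the authors' value per summit, was 3.35 to 5.52. Fold is used here only to describe and rank peaks. DMD, the dystrophin gene, and GMDS, which encodes an enzyme of GDP-fucose synthesis, held 3 each, and 13 further genes held 2, among them CNTNAP2, FLT1, GPC6, DOCK4 and BNC2. By chromosome, 6 held 43 regions (11.98%, against 9.43% of the narrower distal regions and 5.64% of the genome), 4 held 32 (8.91%, 7.39% and 6.28%), 3 held 30 (8.36%, 8.29% and 6.54%), 2 held 28 (7.80%, 8.10% and 7.99%) and 13 held 25 (6.96%, 6.49% and 3.77%).

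Genes of lists relevant to this line were looked up among the hosts and neighbours. A gene was counted if it hosted a region or was the nearest coding gene to one, which was so for 339 of 19962 coding genes (1.7%). Among patterning transcription factors it was so for 10 of 89: DACH1, FOXC1, KLF12, KLF6, MEIS1, NFIA, NR2F2, SOX4, TBX15 and ZFHX4. Among neural genes the count was 5 of 44 (CNTNAP2, NTRK2, ROBO1, SLIT2 and SOX4), and among matrix and adhesion genes 4 of 42 (CDH2, LAMA4, PCDH7 and PCDH9). Nephron genes gave 2 of 43 (FOXC1 and MEIS1), AP-1 and Hippo genes 2 of 30 (TEAD1 and WWTR1), and genes of WNT, FGF, TGF-β and Notch signalling 4 of 81 (FGFR1, LGR4, TCF7L2 and TGFBR3). The part of gene length and of distance between genes in these counts was not tested.

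The fold of the regions was moderate. Its median was 4.67, with a range from 2.31 to 9.14, against 5.00 in the distal regions of 1000 to under 2000 bp and 4.10 over all regions. The local background around the summits was a median of 2.81 times the genome-wide one, against 1.71 in the narrower distal regions. Fold varied with distance from a start site: its median was 4.03 in the 45 regions at 2 to 5 kb, 4.58 in the 144 at 5 to 20 kb, 4.79 in the 128 at 20 to 100 kb and 4.92 in the 42 beyond. The local background was 5.81 times the genome-wide one in the nearest class and 2.76, 2.56 and 2.9 times in the others. Of the 20 regions with a fold under 3, 12 were in the nearest class.

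**Figure D2:**
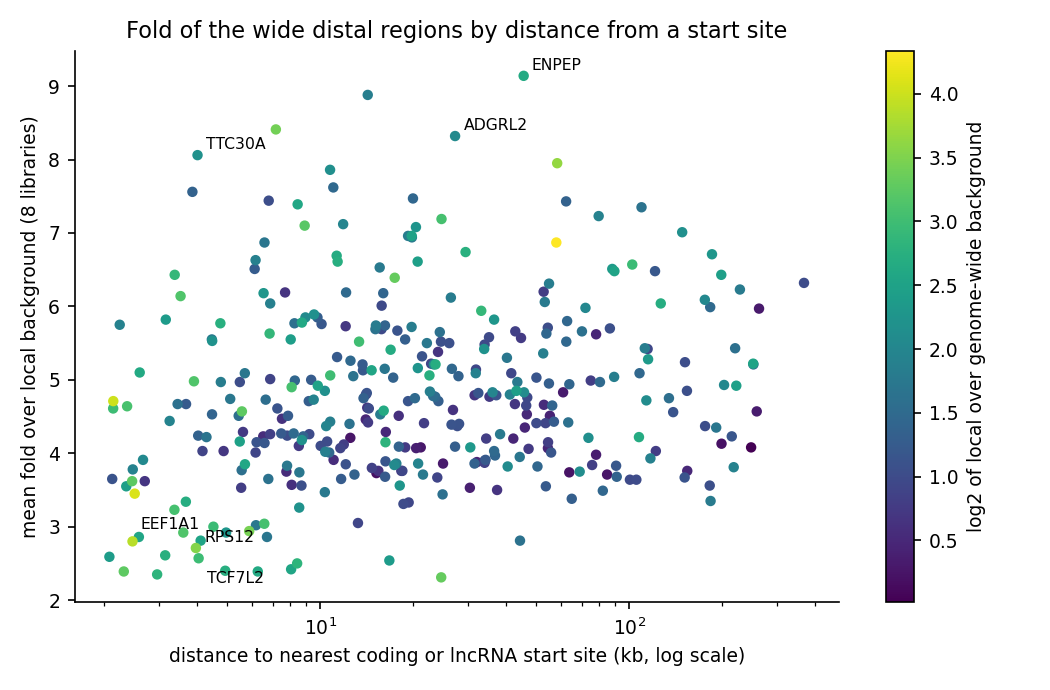
Mean fold over local background in the libraries with a peak (y axis) of each of the 359 regions by its distance in kb from the nearest start site (x axis, log scale), coloured by the log2 of local over genome-wide background. Folds under 3 gather at short distances, as at EEF1A1, RPS12 and TCF7L2, and the highest fold, 9.14, is that of the ENPEP region.

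The 5 regions of highest fold are named by the protein-coding genes they lay in or nearest to, which were of unrelated function. Small RNA genes were not looked up, so a region may overlap one. An intronic region of ENPEP (chr4:110411205-110413273), the gene of aminopeptidase A, which cleaves angiotensin and is abundant in kidney, had a fold of 9.19 ± 0.51 in H2A and 9.08 ± 0.50 in E92K (SD, n = 4 each). Its pileup was 153, 125, 140 and 162 fragments in H2A and 149, 170, 153 and 152 in E92K, which overlapped. The region 49.4 kb from MAP9, a microtubule protein gene, had folds of 8.33 ± 0.96 and 9.43 ± 0.25. The region 17.9 kb from ZMAT2 had 8.63 ± 0.54 and 8.20 ± 0.52, and its pileup of 219 to 278 fragments in H2A and 195 to 233 in E92K gave a log2 difference of -0.17 that did not pass the test (SE 0.08, adjusted p = 0.296 by limma). The ADGRL2 and TTC30A regions shown above completed the group.

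The 5 of lowest fold included 4 beside genes that most cells express strongly. The lowest, with a fold of 2.53 ± 0.15 in H2A and 2.10 ± 0.25 in E92K, lay on the short arm of chromosome 21, 1527.5 kb from TPTE. The others lay at the 3′ end of the ubiquitin-conjugating enzyme gene UBE2S, overlapping the ribosomal protein gene RPL28 (2.35), and beside the RNA-binding protein gene HNRNPH1 (2.39), the initiation factor gene EIF5 (2.39) and, in an intron, RBMX (2.40). The UBE2S region had a peak in only 2 of 4 H2A libraries, with pileups of 35 and 32, and in all 4 E92K libraries, with 46, 48, 44 and 43. The RBMX region had a peak in 3 H2A libraries (44, 34 and 54 fragments) and in no E92K library.

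Sequence at the summits was AT-rich. The 501 bases around the highest summit had a median GC content of 41.9%, against 43.7% in the distal regions of 1000 to under 2000 bp and 47.1% over all regions. Within these windows GATA matches stood in 38.7% of the wide regions (34.1% and 25.1% in the other 2 sets), homeobox matches in 18.1% (15.3% and 11.6%), PBX/HOX matches in 8.36% (5.50% and 3.03%) and AP-1 matches in 14.8% (12.6% and 10.3%). GC-rich SP matches (GGGCGG) stood in 9.19% (12.2% and 23.9%). Apart from NFI, given below, the other motifs searched did not rise over the narrower regions. FOX matches stood in 8.64% (10.2% and 7.95%), SOX matches in 3.62% (6.22% and 5.39%) and POU matches in 2.23% (2.72% and 2.67%). The shares of short AT-rich motifs can move with base composition, whose part in them was not tested.

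The CTCF core was found at the top summit of 4 wide regions, or 1.11%, against 6.16% of the narrower distal regions and 5.67% of all regions. CTCF is the zinc finger protein that halts cohesin at loop anchors and typically marks narrow open sites. The motif of the nuclear factor I (NFI) family (TTGGC, 5 bases of any kind, GCCAA) was also found in 4 regions (1.11%), against 0.221% of the narrower and 0.180% of all regions, a count too small to compare firmly. These 8 sites are given here because they are the complete set of both kinds; capitals mark the motif.
NFI in PHACTR2, chr6:143745864-143745894, plus strand: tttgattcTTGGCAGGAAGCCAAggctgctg
NFI near ASXL3, chr18:33804453-33804483, plus strand: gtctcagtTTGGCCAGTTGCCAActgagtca
NFI in LRBA, chr4:150782508-150782538, plus strand: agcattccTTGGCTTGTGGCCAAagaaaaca
NFI in MAP4, chr3:48038803-48038833, plus strand: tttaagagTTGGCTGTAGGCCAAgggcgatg
CTCF near HSPA8, chr11:123054460-123054487, minus strand: atctttgtCCACTAGATGGCagtagcta
CTCF near DSC3, chr18:30971545-30971572, minus strand: agaaatggCCACTAGATGGCaatatata
CTCF near TYW3, chr1:74772105-74772132, plus strand: acaattatCCACCAGGTGGCagagtact
CTCF in MVB12B, chr9:126501050-126501077, plus strand: ccaggcggCCACCAGGTGGCagtgtcct
The PHACTR2 site lay 233 bp from the summit, and the other NFI sites lay within 48 bp of theirs. All 4 NFI sites were symmetric inverted repeats, as the searched pattern requires.

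**Figure D3:**
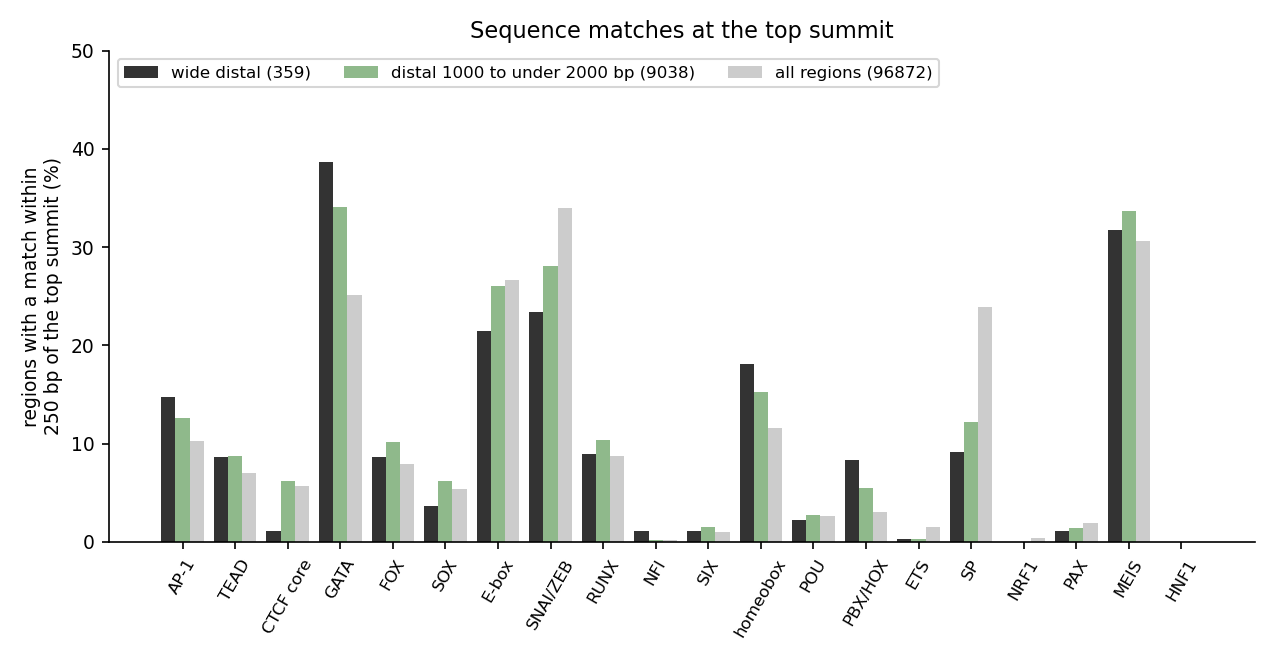
Share of regions with a motif match within 250 bp of the top summit (y axis, %) for 20 motifs (x axis) in the 359 wide distal regions, the 9038 distal CpG-poor regions of 1000 to under 2000 bp and all 96872 regions. GATA, homeobox and PBX/HOX bars are highest in the wide regions, and the CTCF core bar is lowest there.

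Detection was nearly complete. A peak was present in all 8 libraries in 324 of the 359 regions, in 7 libraries in 23, in 6 in 8, and in 3 to 5 libraries in the other 4. The share in all 8 was 90.3%, against 71.6% of the narrower distal regions and 38.1% of all regions. It was 94.6% and 99.9% in wide CpG-poor and CpG-rich regions near a start site. Width was merged over the libraries, so these shares follow the rule in part. Regions without a peak numbered 11, 12, 9 and 4 in H2A replicates 1 to 4 and 6, 4, 4 and 4 in E92K replicates 1 to 4. A missing peak means that none was called in that list, not that the site was closed. Besides the RBMX region, 1 other lacked a peak in every library of a lentivector: it was found in no H2A library and lay 8.4 kb from ZNF212, with pileups of 41, 39, 48 and 47 fragments in E92K. The same count over all regions of the series is not given here.

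The height of the regions was then compared between the lentivectors. The highest pileup of each region was tested with limma on the log2 scale, after centring each library on its median, across the 36895 regions of the series with a peak in all 8 libraries. The test therefore covers the 324 wide regions detected everywhere, and says nothing of the other 35.

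Pileup was higher in E92K in 36 of the 324 wide regions and lower in none (Benjamini-Hochberg adjusted p under 0.05 by limma). Over all 36895 regions the share called higher was 1.65% (609 regions) and the share called lower was 0.342% (126 regions), whereas the wide regions gave 11.1%. Without adjustment, 102 wide regions were higher and 2 were lower at p under 0.05, beside 7.91% and 5.7% of all regions. The median log2 difference of the 324 was 0.18 and that of all regions was -0.01; 262 of the 324 were positive (80.9%, against 48.0% of all). In 75 of the 324 (23.1%) every centred E92K value exceeded every H2A value, against 4.68% of all regions, and the reverse occurred in none, against 3.07%.

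The scale between libraries bears on these counts. With no centring, 216 regions of the series were higher and 123 lower, and 13 wide regions were higher; the median difference over all regions was then -0.09. With each library scaled to its genome-wide background, 1264 were higher and 53 lower, 55 wide regions were higher, and the median over all regions was 0.07. No wide region was called lower under either. When the mean over a region's summits replaced the highest, 9 wide regions were called and the median difference of the 324 was 0.18.

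Regions of low GC content were called more often throughout the series. The share of all regions called higher was 5.20% in the lowest of 10 equal classes by GC content of the summit window and 0.136% in the highest, and the 122 wide regions in the lowest class gave 14 calls (11.5%). With the libraries centred within these GC classes 31 wide regions were called higher, 29 of them among the 36, and none lower, with a median difference of 0.14. Local background over the genome-wide one, in the medians of the 324, was also higher in E92K (3.01 to 3.27) than in H2A (2.76 to 2.88), while median fold was 4.90 to 4.97 in E92K and 4.51 to 4.62 in H2A. The part of depth and background in the difference was not tested.

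The difference varied with the width of distal CpG-poor regions below 2000 bp as well. Of those under 1000 bp, 97 of 11234 were higher (0.863%) and 68 were lower, with a median log2 difference of -0.05. Of those of 1000 to under 2000 bp, 387 of 6472 were higher (5.98%) and 14 lower, with a median of 0.09. Shares of 10.3% and 10.4% in the classes from 1500 bp and from 1750 bp were close to those of the wide regions, so nothing separates the regions at 2000 bp. Wide regions of another kind gave lower shares: 9 of 226 wide CpG-poor regions near a start site were higher, 2 of 1170 wide CpG-rich regions near a start site, and none of 32 wide distal CpG-rich regions.

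**Figure D4:**
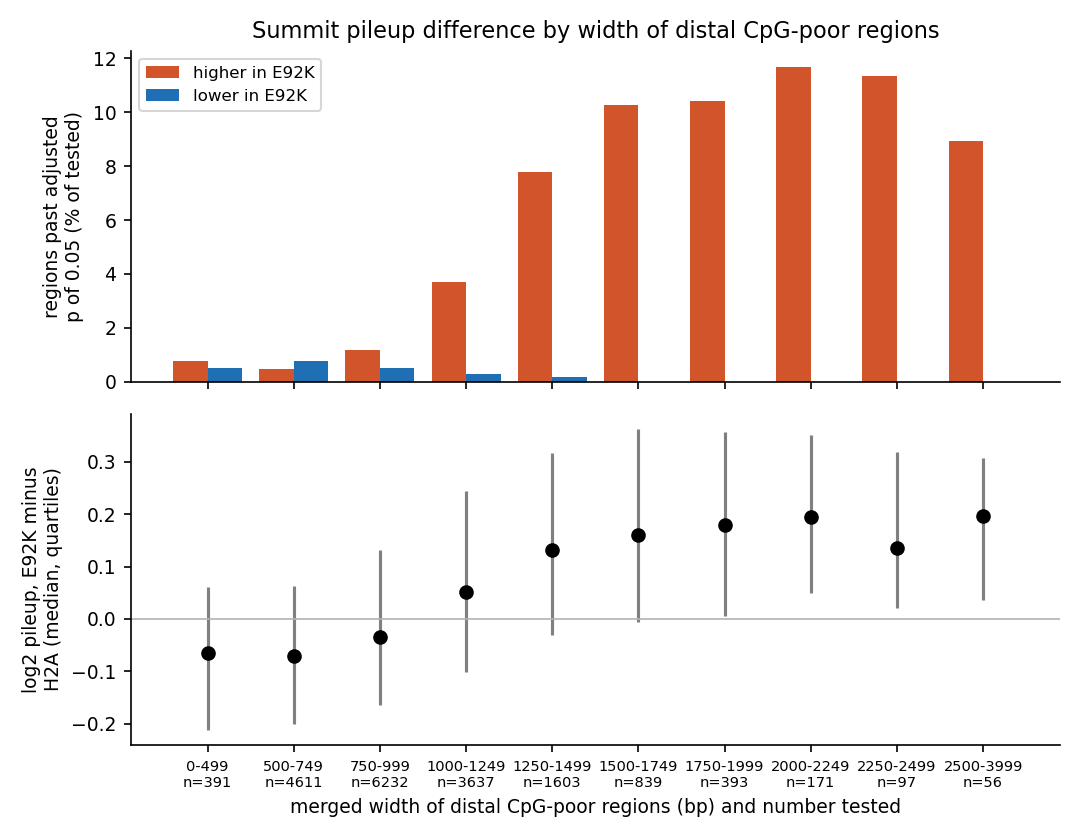
Distal CpG-poor regions by merged width (x axis, with the number tested): above, the share past an adjusted p of 0.05 in each direction (y axis, %); below, the median and quartiles of the log2 pileup difference, E92K minus H2A. The share higher in E92K was 0.455% at 500 to 749 bp, 7.80% at 1250 to 1499 bp and 11.7% at 2000 to 2249 bp.

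The largest difference was in an intron of VWA8, a mitochondrial ATPase gene (chr13:41639652-41641692). Its pileup was 22, 22, 25 and 24 fragments in H2A and 48, 59, 46 and 35 in E92K. All E92K libraries stood above all H2A libraries, 2.10-fold after centring (log2 difference 1.07, SE 0.17, adjusted p = 0.000124 by limma). Fold was 4.38 ± 0.31 in H2A and 7.04 ± 0.80 in E92K (SD, n = 4 each), and a PBX/HOX match lay in its summit window.

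A region on chromosome 8 in the lncRNA gene MSC-AS1, 41.3 kb from the irritant-sensing channel gene TRPA1, had pileups of 27, 23, 32 and 35 in H2A and 46, 67, 42 and 62 in E92K. The groups did not overlap (log2 difference 0.96, SE 0.16, adjusted p = 0.000303 by limma). The region 114.5 kb from FAM171A1 (chr10:15485801-15487813) had 20, 18, 27 and 24 fragments in H2A and 40, 44, 34 and 43 in E92K (log2 difference 0.94, SE 0.17, adjusted p = 0.000819 by limma). Both were at a modest level in H2A.

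In a lncRNA gene 190.0 kb from SHOX2, a homeobox gene of limb and heart development, the region at chr3:157913140-157915277 had pileups of 28, 37, 31 and 36 in H2A and 54, 61, 52 and 60 in E92K. This was again a separation of all libraries (log2 difference 0.87, SE 0.15, adjusted p = 0.000407 by limma). The region in an intron of PCDH7, another protocadherin gene (chr4:30882574-30885027), had 25, 22, 26 and 25 in H2A and 44, 40, 38 and 42 in E92K (log2 difference 0.82, SE 0.16, adjusted p = 0.00247 by limma). Its covered length went the other way, with 1516, 1391, 1797 and 1688 bp in H2A and 624, 1578, 730 and 1035 bp in E92K.

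At higher levels, the region 901.9 kb from ADGRL2, a latrophilin adhesion receptor gene (chr1:80401899-80404294), had pileups of 80, 65, 58 and 90 in H2A and 103, 130, 123 and 119 in E92K (log2 difference 0.79, SE 0.11, adjusted p = 4.06e-05 by limma). The region 19.7 kb from TTC30A, an intraflagellar transport gene (chr2:177596975-177599086), had 76, 63, 76 and 98 in H2A and 111, 131, 108 and 140 in E92K (log2 difference 0.73, SE 0.11, adjusted p = 6.94e-05 by limma). No E92K library fell within the H2A range at either. In an intron of SORCS1, a sorting receptor gene of the sortilin family (chr10:106979797-106982185), the values were 44, 30, 35 and 39 in H2A and 49, 73, 49 and 67 in E92K, with an adjusted p of 0.00226.

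**Figure D5:**
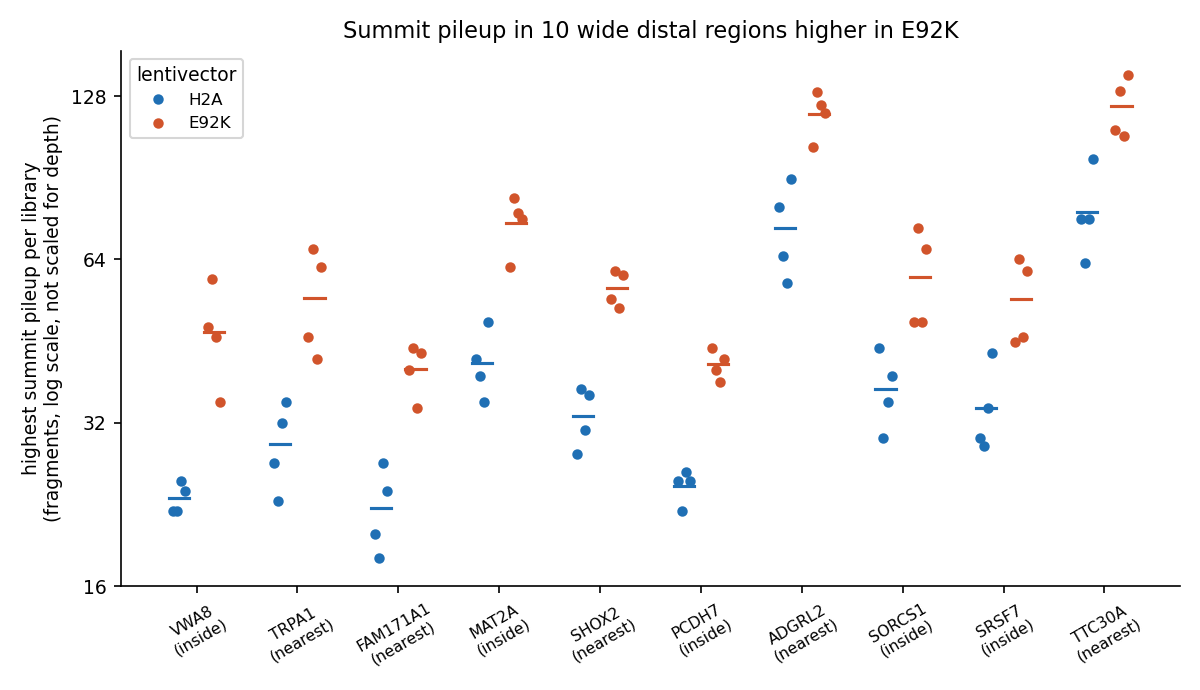
Highest summit pileup per library (points; y axis in fragments, log scale, before scaling for depth) and group mean (line) in the 10 regions with the largest log2 difference among the 36 called, labelled by the gene they lie in or nearest to. All 4 E92K points lie above all 4 H2A points in every region shown, from VWA8 (22 to 25 against 35 to 59) to TTC30A (63 to 98 against 108 to 140).

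The other 26 called regions had log2 differences from 0.33 to 0.67. They are named here after their values were seen. The strongest in pileup were a pair near TLE4, a Groucho-family corepressor gene: at 313.4 kb from it the pileup was 274 to 402 in H2A and 348 to 431 in E92K before centring, and at 123.1 kb it was 203 to 274 and 245 to 304. After centring, the log2 differences were 0.34 (SE 0.07) and 0.33 (SE 0.07). Others lay in introns of PARD3B (0.67), a cell polarity gene, FAT3 (0.56), an atypical cadherin gene, and HECA (0.48), and at 56.4 kb from ZNF703 (0.60) and 271.7 kb from ADGRL2 (0.51), which thus had a pair of called regions upstream.

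Called regions were higher than the rest: their median pileup was 79.25 fragments and their median fold 6.04, against 37.3 and 4.72 in the 288 tested and not called. The part of the level in the calls was not tested. Called regions lay a median of 55.4 kb from a coding start site, against 31.25 kb, and 14 of the 36 lay between genes, against 73 of 288. A MEIS match (TGACAG) was present at the top summit of 18 of the 36 and 80 of the 288, and a PBX/HOX match in 6 and 21. A GATA match was present in 15 and 112, and the CTCF core in 0 and 4. AP-1 matches stood in 3 and 49, SP matches in 1 and 30, and TEAD matches in 5 and 23. Over all wide regions MEIS matches stood in 31.8%, against 33.6% of the narrower distal regions and 30.7% of all regions. MEIS and PBX proteins are homeodomain partners of HOX factors. These shares were compared after the calls were seen and were not tested.

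In covered length no wide region passed the test. In each library the bases of a region covered by peaks were tested in the same way, and none of the 324 wide regions was called by limma in either direction, beside 0.00271% of all regions higher (1 of 36895) and 0 lower. Without adjustment 28 wide regions were longer in E92K and 20 shorter at p under 0.05 (8.64% and 6.17%, against 2.87% and 3.71% of all regions). Every centred E92K value exceeded every H2A value in 14 wide regions (4.32%, against 1.48% of all), and the reverse held in 4 (1.23%, against 2.21%). These counts follow the rule in part, because a region can reach 2000 bp through the peaks of 1 group. Peaks of either group alone reached that width in 105 regions, those of H2A only in 107, those of E92K only in 75 and those of neither in 72. Of the 28 longer in E92K 18 were among the 75, and of the 20 shorter 13 were among the 107, whereas the 105 gave 5 and 3. In pileup the 105, all tested, gave 10 calls higher in E92K (9.5%) and a median log2 difference of 0.17. The median covered length of the 324 was 1566.5 to 1735.5 bp in H2A libraries and 1556.5 to 1726.5 bp in E92K libraries, and the median log2 difference was -0.004.

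Regions at the 3′ ends of genes are described together. They were grouped after their values were seen, and no test is given for the group. A coding gene's 3′ end lay inside 6 regions and less than 5 kb before another 17, together 23 (6.4%). Their median fold was 3.34, against 4.72 in the other 336, and their local background was 6.71 times the genome-wide one, against 2.71 times. Of the 19 tested, 6 were called higher in pileup (31.6%), against 30 of the other 305 (9.8%) and 1.65% of all regions. Regions at gene ends outside the wide set were not counted, so this share is not a result about gene ends. The median log2 difference in covered length was 0.03 over the 19 and -0.01 over the 305. It was 0.96 in the 6 called and -0.10 in the 30 called elsewhere. In 5 of the 6, at SRSF7, RPS12, MAT2A, HNRNPH1 and EEF1A1, E92K peaks alone reached 2000 bp and H2A peaks alone did not, and this was also so at HSPA8. These regions were thus selected through the group in which they were long, and their covered lengths are given as a description with no test. Their pileup may share in that selection, so their calls in pileup are likewise given as a description.

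At SRSF7 and GALM peaks covered 863, 641, 1154 and 1802 bp in H2A and 2043, 2241, 2942 and 2178 bp in E92K. Every E92K library was longer than every H2A library. The longest unbroken stretch was 1177 bp from H2A peaks alone and 3328 bp from E92K peaks alone. Pileup there was 30, 29, 34 and 43 in H2A and 45, 64, 46 and 61 in E92K, a called difference (log2 difference 0.75, SE 0.15).

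Past the 3′ end of RPS12, a gene of the small ribosomal subunit (chr6:132818523-132821462), covered length was 775, 477, 674 and 739 bp in H2A and 1075, 1401, 2101 and 2224 bp in E92K. The groups did not overlap, and the longest stretch from H2A peaks alone was 860 bp of the region's 2940 bp. Pileup there was 78, 52, 64 and 75 in H2A and 98, 82, 91 and 93 in E92K, a called difference. Fold was 2.71 in both groups, with SD of 0.44 and 0.48.

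At the 3′ end of MAT2A, which makes the methyl donor S-adenosylmethionine, next to the vitamin K-dependent carboxylase gene GGCX (chr2:85545152-85547826), pileup was 42, 39, 35 and 49 in H2A and 62, 83, 78 and 76 in E92K. All 4 E92K libraries stood above the H2A libraries, a called difference (log2 difference 0.94, SE 0.13). Covered length there was 1040, 990, 1118 and 1334 bp in H2A and 2040, 2103, 1976 and 1258 bp in E92K, so that E92K replicate 4 lay within the H2A range.

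Next to HSPA8, the constitutive HSC70 chaperone gene (chr11:123053992-123056962), covered length was 1125, 1346, 1065 and 1324 bp in H2A and 1637, 2692, 2022 and 1867 bp in E92K, and the longest stretch from H2A peaks alone was 1383 bp. Its pileup did not pass the test, with 98, 87, 81 and 102 fragments in H2A and 76, 115, 97 and 97 in E92K. At HNRNPH1 the log2 difference in covered length was 1.14 and at the region that holds part of the elongation factor gene EEF1A1 it was 0.77, and at PTMA, a prothymosin gene, it was 0.03, with a called difference in pileup (118, 118, 117 and 161 against 150, 184, 174 and 186 fragments). The last pair were named after their values were seen. The level of transcription of these genes was not measured here.

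Regions tied to the gene lists mostly gave values within the spread of the libraries. None of the 3 nephron, 5 neural, 2 AP-1 and Hippo and 4 signalling regions tested was called in either direction, with median log2 differences of 0.07, 0.03, 0.11 and 0.15, beside 0.18 for all wide regions. Calls are to be read against 36 of 324 wide regions (11.1%) and 1.65% of all regions. Of 9 matrix and adhesion regions tested 2 were called higher, those in PCDH7 and PCDH9 (chr13:66557736-66559749), and of 12 near patterning factors 1 was, the KLF12 region. With so few regions per list these counts do not set any list apart.

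MEIS1, a homeobox partner of HOX proteins, had a region in an intron and one 41.7 kb from its start in LINC01873. The second had pileups of 75, 59, 70 and 66 in H2A and 55, 83, 66 and 67 in E92K, which overlapped. The region 11.6 kb from FOXC1, a forkhead gene of kidney and eye development, had 103, 116, 107 and 139 in H2A and 131, 144, 129 and 132 in E92K (log2 difference 0.29, adjusted p = 0.0938 by limma).

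Among neural genes, the region in CNTNAP2, a neurexin-family adhesion gene, at chr7:146345030-146347211 had 53, 66, 62 and 70 fragments in H2A and 56, 59, 61 and 52 in E92K. A pair of regions in the lncRNA gene CASC15 near SOX4, a gene of progenitor cells, had 67 to 92 and 24 to 34 fragments in H2A and 65 to 91 and 21 to 44 in E92K. These ranges overlapped at all 3 regions. The Hippo pathway partners TEAD1, a DNA-binding factor, and WWTR1, its coactivator TAZ, had intronic regions with pileups of 37 to 57 and 24 to 35 in H2A and 40 to 54 and 28 to 40 in E92K.

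Of the signalling regions, the one in TCF7L2, a transcription factor of the WNT pathway, had 45, 46, 42 and 47 in H2A and 49, 65, 56 and 56 in E92K. These groups did not overlap, but the difference missed the threshold (log2 difference 0.40, SE 0.14, adjusted p = 0.127 by limma). In LGR4, a receptor for R-spondins, the values were 46 to 57 and 43 to 59, and in TGFBR3, the betaglycan gene, 43 to 55 and 42 to 58. The region 96.4 kb from the receptor gene FGFR1 had 31 to 38 and 34 to 43.

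The KLF12 region, 189.0 kb from this repressor gene (chr13:74323447-74325778), had pileups of 151, 128, 151 and 157 in H2A and 170, 209, 189 and 181 in E92K. It was called at a small difference (log2 difference 0.43, SE 0.08, adjusted p = 0.00162 by limma). In an intron of DACH1, a nuclear factor of eye and limb development, the pileup was 103, 101, 105 and 154 in H2A and 119, 128, 135 and 120 in E92K, where H2A replicate 4 was the highest of all libraries.

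The 7 regions in PCDH9 were not uniform. Their log2 differences ran from -0.01 to 0.42, with a median of 0.08 and 6 positive, and only that at chr13:66557736-66559749 was called, with 71, 76, 68 and 64 fragments in H2A and 86, 105, 85 and 80 in E92K (adjusted p = 0.0407 by limma). Its neighbour at chr13:66527995-66530186, had 84, 66, 60 and 74 in H2A and 68, 84, 73 and 71 in E92K, which overlapped.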

How the data were processed

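The 8 ATAC-seq libraries (4 H2A, 4 H2A(E92K); groups and replicate numbers from the titles) each had a peak list called per sample. The genome build was hg38, per the labels. Duplicate handling, the Tn5 shift, the peak caller and the aligner are not given in the sources used. The authors deposited a whole-number score, a fold (ratio of a summit to its local background), −log10 p-value and −log10 q-value columns and a summit offset. Whole-number pileups n were recovered from fold (n + 1)/(b + 1) and a Poisson p, within 0.001 of the −log10 p for 100% of summits, and the smallest b was taken as relative depth, since total reads were not analysed here.

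Start sites and genes came from GENCODE 44, and only protein-coding and lncRNA genes were used. Log2 of the highest summit pileup and of covered bases per region and library, centred on each library's median, were fitted with limma 3.58.1 (trend, no block) in R 4.3.3 over the 36895 regions with a peak in all 8 libraries, with Benjamini-Hochberg adjustment and a threshold of 0.05. Scripts were tested on simulated data. Motifs were searched within 250 bp of a region's highest summit, taken as the summit with the largest −log10 p over all libraries. No region had a copy of over 30% of its length at 90% identity on another main chromosome location (minimap2 2.31), and none matched mitochondrial DNA (blastn 2.17.0).

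The members, gene lists, motifs and tests were chosen with earlier results of these data known. By rule the text names the 12 widest regions, up to 10 called per direction by size of difference, the 5 highest and 5 lowest by fold, up to 4 per gene list, and the 3 regions on each side of the width limit; a criterion on soft-masked sequence was not used here. One region was left unnamed, and 1 of the cell type markers is not reported here. Alternatives covered the width, distance, CpG and merging rules, scaling, filters, the variance model, a replicate block and leaving out each library.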

Additional observations from a re-analysis of the deposited data

Results flagged for a closer look

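A library far from the other 3 of its group, by Dixon's 95% limit for 4 values, was looked for in the pileup and covered length of the named and called regions and those in PCDH9. It was found in 13 of 291 groups of libraries, and chance flags about 1 in 20.

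In pileup, H2A replicate 4 stood high at 3 regions: 101 fragments at the MAP9 region (67 to 68 in the others), 154 in DACH1 (101 to 105) and 161 at PTMA (117 to 118). E92K replicate 2 stood high at 3 others: 105 in PARD3B (87 to 89), 142 in PCDH9 at chr13:67134421-67136578 (107 to 112) and 133 in AP1S3 (95 to 100). Pileups are given before scaling, and these were the deepest libraries of their groups, with genome-wide backgrounds of 2.93 and 2.68 fragments. H2A replicate 1 stood low at the FGFR1 region, with 31 fragments (37 to 38 in the others).

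In covered length, E92K replicate 4 was short at MAT2A and GGCX, with 1258 bp (1976 to 2103 bp in the others). H2A replicate 3 was short at the LEP region, with 759 bp (1416 to 1537 bp), and H2A replicate 1 at the TLE4 region 123.1 kb from the gene, with 2017 bp (2124 to 2146 bp). H2A replicate 4 was long at the TPTE region, with 1707 bp (749 to 850 bp), and E92K replicate 3 was long at the ADRA2C region, with 908 bp (657 to 689 bp), and at the region nearest to GMNC, with 1906 bp (1216 to 1292 bp).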

How the results depend on the processing

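No alternative turned the direction of the 10 named called regions. They were chosen for large differences in these same data, so this stability follows in part from the choice. Of 191 values for them, 186 stayed past the threshold, and 5 (SRSF7, TRPA1, SHOX2, ADGRL2 and SORCS1, all with the mean over summits) did not. Over all 191 the log2 differences ran from 0.57 to 1.18, and the highest adjusted p was 0.26 by limma. A region that a setting no longer tested gave no value there. Of all 36 called regions, 13 stayed called without centring, 9 with the mean over summits and 15 without limma's trend. Without E92K replicate 3, 22 stayed, and all 36 did with genome-wide background scaling or with centring within chromosomes. Wide regions called higher numbered 13 without centring, 55 with genome-wide background scaling, 9 with the mean over summits, 16 without limma's trend and 23 to 34 when each library was left out, the lowest without E92K replicate 3; none was ever called lower. The same settings gave 216, 1264, 219 and 313 regions of the series higher (331 to 652 with a library left out, lowest without E92K replicate 4), and 53 lower with background scaling, 22 with the mean over summits, 47 without trend and 52 to 175 with a library left out (lowest without H2A replicate 3). Restricting the test to regions above the median level gave 281 higher and 79 lower. Centring within GC classes, within chromosomes and by both, added after seeing the data, gave 31, 37 and 30 wide regions. The region of the series called longer in E92K was lost (0) without centring, with the replicate block and without trend, and gave 0 to 2 with a library left out.

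With the replicate number as a block, 32 wide regions were called. The numbers do not pair the libraries: same-numbered libraries deviated together with correlations of -0.063, 0.033, -0.021 and -0.020. A minimum width of 1500 bp gave 1835 regions (1556 detected in all 8 libraries), 3000 bp gave 8 (8 in all), and a single peak of 2000 bp gave 178. Requiring 50% of the width to be covered left 162 in all 8.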
